A study of Mus musculus with 36 samples.

Results

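The neurotrophin ligands Bdnf and Ntf3 and the receptors Ntrk2, Ntrk3 and Ngfr were followed in knee cartilage after joint injury. These 5 genes, of 23071 with a symbol in the count tables, own 12 of the 30048 RefSeq transcripts counted. Each gene was read from the transcript with the highest mean count over the 12 RNA-seq libraries, namely NM_001048142 for Bdnf, NM_001164034 for Ntf3, NM_008745 for Ntrk2, NM_182809 for Ntrk3 and NM_033217 for Ngfr. Of the 5, 4 passed edgeR's filter on low counts in every comparison, and Ngfr, with 75 counts in all 12 libraries together, was too low to pass it in any of them.

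Male C57BL/6J mice had the medial meniscus of the right knee destabilized (DMM), which models post-traumatic osteoarthritis, at 12 weeks of age. The unoperated left knees of the same mice served as the contralateral control, so no sham-operated or naive animals were included. Cartilage of the tibial plateaus and femoral condyles was collected 4 and 12 weeks after surgery, and tissue of 3 knees was pooled for each library, with 3 control and 3 DMM libraries per week for RNA-seq. DNA of other mice was pooled in the same way for reduced representation oxidative bisulfite sequencing (RRoxBS), which measures 5-methylcytosine (5mC) in the oxidised (oxBS) libraries and 5-hydroxymethylcytosine (5hmC) as the bisulfite (BS) minus the oxBS percentage.

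Neurotrophins are secreted growth factors that were first known for keeping neurons alive and for guiding the growth of nerve endings. BDNF, the product of Bdnf, binds the receptor tyrosine kinase TrkB (Ntrk2), and neurotrophin-3 (Ntf3) binds mainly TrkC (Ntrk3), whereas p75 (Ngfr) binds all mature neurotrophins and, with sortilin, their uncleaved precursors. TrkB and TrkC are also made in truncated forms that bind ligand but lack the intracellular kinase domain. In joints the family is studied for its part in the sensory nerves of osteoarthritic tissue.

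The starts of the transcripts are shown because 5mC was measured around them. These are promoter stretches from RefSeq (build GRCm38.p6), from 250 bases before to 50 after a transcript start, read 5′ to 3′ along the gene, with each CG in capitals. The table of promoters held entries for 4 of the 5 members, all but Ntrk3. The starts of Ntf3, Ntrk2 and Ngfr are those of the transcripts named above, and the Bdnf start is the one of 7 listed with the most cytosines measured.
Bdnf, chr2:109694159-109694458, plus strand: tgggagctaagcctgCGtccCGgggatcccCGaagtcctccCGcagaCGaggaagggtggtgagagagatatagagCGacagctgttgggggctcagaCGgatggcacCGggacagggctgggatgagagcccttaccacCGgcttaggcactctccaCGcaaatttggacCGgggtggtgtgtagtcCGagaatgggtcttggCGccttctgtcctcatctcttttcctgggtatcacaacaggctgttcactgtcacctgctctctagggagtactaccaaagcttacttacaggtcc
Ntf3, chr6:126166695-126166994, minus strand: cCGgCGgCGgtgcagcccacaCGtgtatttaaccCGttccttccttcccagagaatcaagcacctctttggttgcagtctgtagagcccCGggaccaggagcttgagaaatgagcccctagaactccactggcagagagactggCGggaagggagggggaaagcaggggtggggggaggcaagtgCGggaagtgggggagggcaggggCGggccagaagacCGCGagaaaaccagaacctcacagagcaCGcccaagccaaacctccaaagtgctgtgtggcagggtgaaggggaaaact
Ntrk2, chr13:58806319-58806618, plus strand: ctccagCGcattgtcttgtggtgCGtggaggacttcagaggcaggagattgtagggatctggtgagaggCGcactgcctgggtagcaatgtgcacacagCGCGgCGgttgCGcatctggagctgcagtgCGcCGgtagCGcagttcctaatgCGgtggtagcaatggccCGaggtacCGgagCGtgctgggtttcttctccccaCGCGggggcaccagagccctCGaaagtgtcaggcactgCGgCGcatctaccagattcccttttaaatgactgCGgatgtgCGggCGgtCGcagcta
Ngfr, chr11:95587649-95587948, minus strand: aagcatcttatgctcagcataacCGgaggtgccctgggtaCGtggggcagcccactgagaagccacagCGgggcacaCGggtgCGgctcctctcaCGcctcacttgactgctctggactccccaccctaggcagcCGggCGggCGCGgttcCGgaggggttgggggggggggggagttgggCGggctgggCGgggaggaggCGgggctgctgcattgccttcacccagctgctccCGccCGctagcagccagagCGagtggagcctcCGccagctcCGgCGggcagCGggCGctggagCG
The Ntrk2 and Ngfr stretches hold 23 CG each, the Bdnf stretch 13 and the Ntf3 stretch 12, where the median of 32851 RefSeq promoters is 7.

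On GRCm38.p6 the curated transcripts of the genes span chr2:109674700-109727043 (Bdnf, plus strand), chr6:126101412-126166744 (Ntf3, minus), chr13:58806569-59133970 (Ntrk2, plus), chr7:78192114-78577838 (Ntrk3, minus) and chr11:95568818-95587698 (Ngfr, minus). The noncoding gene Gm39038 overlaps Ntrk3 on the same strand and Gm53063 overlaps Ntrk2 on the other, by gene span, and shared exons were not examined.

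RNA levels of the 5 members were low. Expression is given as CPM, the count scaled to a fixed library total with TMM factors, and the libraries held 27706547 to 62737656 counts. Per kilobase of transcript, the mean level over all 12 libraries was 1.19 CPM for Ntrk2, 0.397 for Ntf3, 0.328 for Ntrk3, 0.110 for Bdnf and 0.0421 for Ngfr. Among 23032 genes ranked by this level, Ntrk2 lay at percentile 48.9 and Ngfr at percentile 29.0. Within every library Ntrk2 was above Ntf3, although across libraries their ranges overlapped in the 4-week controls. Ntrk3 was likewise above Bdnf within every library, although their ranges across libraries overlapped in 3 of the 4 groups. The ranges of Ntf3 and Ntrk3, and those of Bdnf and Ngfr, also overlapped in 3 of the 4 groups, and neither of these pairs kept the same order in every library.

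Chondrocyte markers were abundant in all libraries, with a summed level of 20312 to 76918 CPM over 20 genes. Markers of tissues next to cartilage were also present. The 30 skeletal muscle genes summed to 198 to 32497 CPM, the 14 fibroblast and synovium genes to 3643 to 22284 CPM, and the 18 Schwann cell genes to 299 to 765 CPM. The 18 haematopoietic genes summed to 11600 to 38543 CPM, the 14 endothelial genes to 259 to 380 CPM and the 12 mural cell genes to 140 to 295 CPM. The 15 neuron genes summed to 7.12 to 14.8 CPM, and 2 of them had no count in any library. In pooled tissue, fewer cells of a type and less RNA per cell cannot be told apart.

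**Figure D1:**
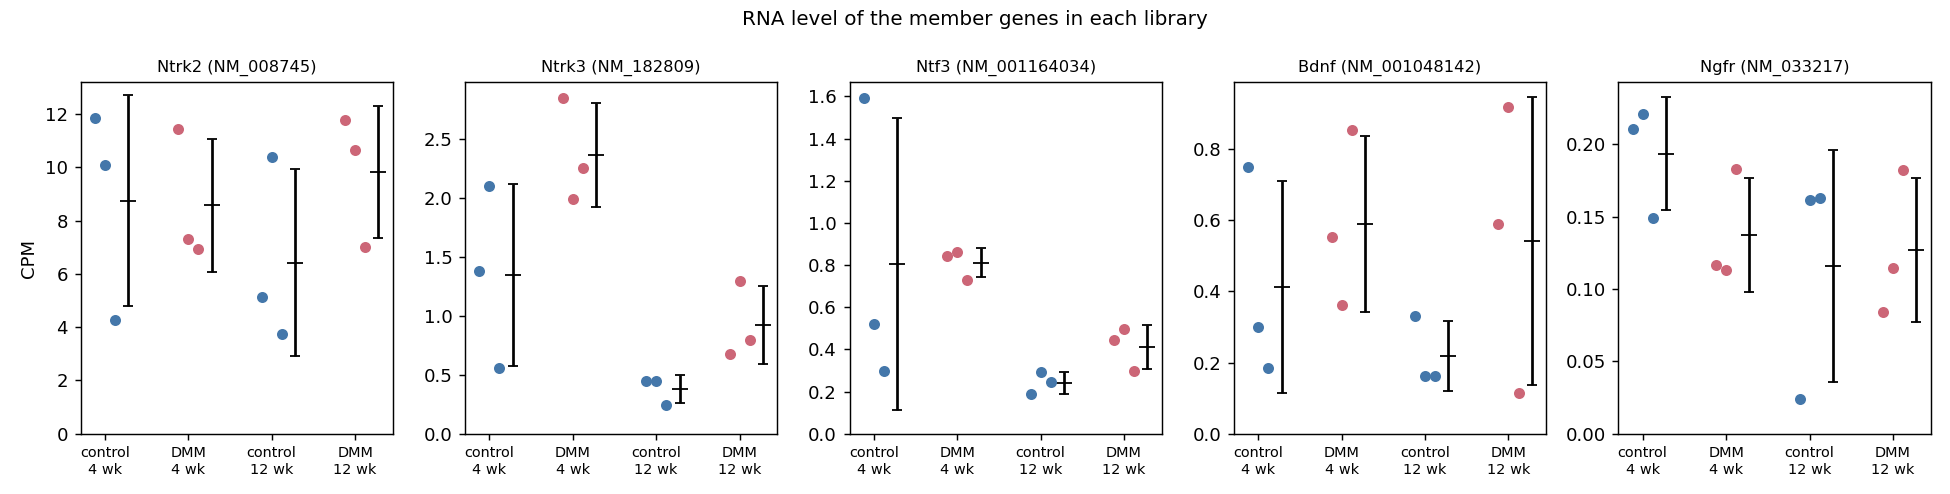
RNA level (CPM, linear axis from 0, with its own scale in each panel) of each member's transcript in the 3 control (blue) and 3 DMM (red) libraries at 4 and 12 weeks; bars show mean ± SD. At 12 weeks the Ntrk3 and Ntf3 libraries of DMM cartilage lie above all control libraries, and the 4-week Ntf3 controls run from 0.298 to 1.59 CPM.

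Bdnf encodes a ligand of TrkB and p75. Its 4 counted transcripts share the coding exon, and 3 of them had the same count in every library, so they are not separate measurements. At 4 weeks Bdnf was at 0.750, 0.301 and 0.186 CPM in the control and at 0.553, 0.362 and 0.854 CPM in the DMM libraries, and at 12 weeks at 0.332, 0.162 and 0.163 CPM in the control and 0.590, 0.918 and 0.114 CPM in the DMM libraries. The limbs overlapped at both weeks, and DMM replicate 3 was the lowest of all 6 libraries at 12 weeks. The log2 fold change of DMM over control was 0.52 (standard error, SE, 0.58, adjusted p = 0.667 with edgeR) at 4 weeks and 1.27 (SE 0.73, adjusted p = 0.401) at 12 weeks. At 4 weeks the value ran from 0.15 to 1.25 when single libraries were left out, the highest without control replicate 1. The 95% interval at 12 weeks ran from -0.42 to 2.96, so a rise of several fold and a small fall both lie within it. These values rest on 5 to 32 counts per library.

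Ntf3 encodes neurotrophin-3, the main ligand of TrkC. It was at 1.59, 0.521 and 0.298 CPM in the control and at 0.844, 0.861 and 0.732 CPM in the DMM libraries at 4 weeks. The control libraries spanned the DMM libraries, and the log2 fold change was 0.04 (SE 0.58, adjusted p = 0.981 with edgeR). This value ran from -0.38 to 0.99 when single libraries were left out. At 12 weeks Ntf3 was at 0.190, 0.291 and 0.245 CPM in the control and at 0.443, 0.497 and 0.296 CPM in the DMM libraries. The DMM libraries all lay above the controls (exact permutation test, two-sided, p = 0.1, the smallest that 3 libraries against 3 allow), with a log2 fold change of 0.75 (SE 0.45, 95% interval -0.29 to 1.78, adjusted p = 0.416 in edgeR's test). The other counted Ntf3 transcripts gave the same pattern of overlap, but they share exons with the first.

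Ntrk2 encodes TrkB, and its leading transcript NM_008745 is the truncated receptor of 476 residues. It was the most abundant member, at 11.9, 10.1 and 4.28 CPM in the control and 11.4, 7.32 and 6.95 CPM in the DMM libraries at 4 weeks. At 12 weeks it was at 5.14, 10.4 and 3.75 CPM in the control and 11.8, 10.6 and 7.03 CPM in the DMM libraries. The limbs overlapped at both weeks. The log2 fold change was -0.02 (SE 0.39, 95% interval -0.92 to 0.87, adjusted p = 0.984 with edgeR) at 4 weeks and 0.62 (SE 0.38, 95% interval -0.26 to 1.49, adjusted p = 0.428) at 12 weeks. The 12-week value ran from 0.33 to 1.12 when single libraries were left out, the highest (adjusted p = 0.0701 with edgeR) without control replicate 2. These values rest on 138 to 643 counts per library.

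Ntrk3 encodes TrkC, and its leading transcript NM_182809 is the truncated receptor of 612 residues. At 4 weeks it was at 1.38, 2.11 and 0.558 CPM in the control and at 2.85, 1.99 and 2.26 CPM in the DMM libraries. The log2 fold change was 0.82 (SE 0.46, adjusted p = 0.422 in edgeR's test), and 1 control library lay within the DMM range. At 12 weeks Ntrk3 was at 0.450, 0.452 and 0.245 CPM in the control and at 0.675, 1.30 and 0.796 CPM in the DMM libraries, so that the groups did not overlap (exact permutation test, two-sided, p = 0.1). This difference, 1.24 on the log2 scale (SE 0.43, 95% interval 0.25 to 2.23), had an unadjusted p of 0.0200 and an adjusted p of 0.263 in edgeR's test, and of 0.166 in DESeq2. The difference therefore did not pass the test, and the libraries of the other counted Ntrk3 transcript, NM_008746, overlapped between the limbs (exact permutation test, two-sided, p = 0.5). The summed fibroblast and synovium markers ran in the same order, at 4006 to 11461 CPM in control and 13380 to 22284 CPM in DMM cartilage at 4 weeks, and at 3643 to 6730 CPM and 7823 to 12643 CPM at 12 weeks. Of these 14 markers, 12 were higher in DMM at each week, with median log2 fold changes of 1.06 and 1.29, and at 12 weeks 20 of 20 chondrocyte genes were higher (median 0.47) and 18 of 18 haematopoietic genes lower (median -0.42). The part of these lists in the Ntrk3 and Ntf3 values, and in those of the other members, was not tested.

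Ngfr encodes p75. Its libraries held 9, 11 and 8 counts in the control and 4, 5 and 6 in the DMM group at 4 weeks, and 1, 10 and 6 in the control and 4, 3 and 8 in the DMM group at 12 weeks. These are 0.0237 to 0.221 CPM, where 3 counts in a library correspond to 0.0485 to 0.115 CPM. The group sums of 28, 15, 17 and 15 counts have exact 95% Poisson intervals of 18.6 to 40.5, 8.40 to 24.7, 9.90 to 27.2 and 8.40 to 24.7, which cover counting error only. Without the filter, edgeR gave log2 fold changes of DMM over control of -0.50 (SE 0.57, adjusted p = 0.685) at 4 weeks and 0.12 (SE 0.84, adjusted p = 0.959) at 12 weeks, and DESeq2 an adjusted p of 0.780 at 4 weeks. A difference between the limbs was not detectable at this depth.

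With the 4 tested members side by side, edgeR's quasi-likelihood test called 0 at 4 weeks, where 0.0757% of all 21140 transcripts tested were called, and 0 at 12 weeks, where 0.00476% of 21010 were called. At an unadjusted p under 0.05 there were 0 members at 4 weeks and 1, Ntrk3, at 12 weeks, beside 6.11% of transcripts higher and 7.57% lower at 4 weeks and 8.94% higher and 7.39% lower at 12 weeks. DESeq2, which called 3.44% and 4.02% of transcripts, called 0 at both weeks. The median log2 fold change of the 4 was 0.28 at 4 weeks and 0.99 at 12 weeks, beside -0.03 and 0.01 over all transcripts tested. Groups that did not overlap with DMM above control were found for 0 members at 4 weeks and for Ntf3 and Ntrk3 at 12 weeks, whereas 10.8% and 10% of all transcripts showed this, and 10.4% and 8.85% the opposite order, which no member showed. A difference of the DMM effect between the weeks was called for 0 members in edgeR's interaction test, as for all 21618 transcripts (0%). At an unadjusted p under 0.05 there were 0 members, beside 12.3% of transcripts, and DESeq2 called 0 members. The smallest adjusted p-value among the 4 interactions was 0.608, for Ntrk2.

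**Figure D2:**
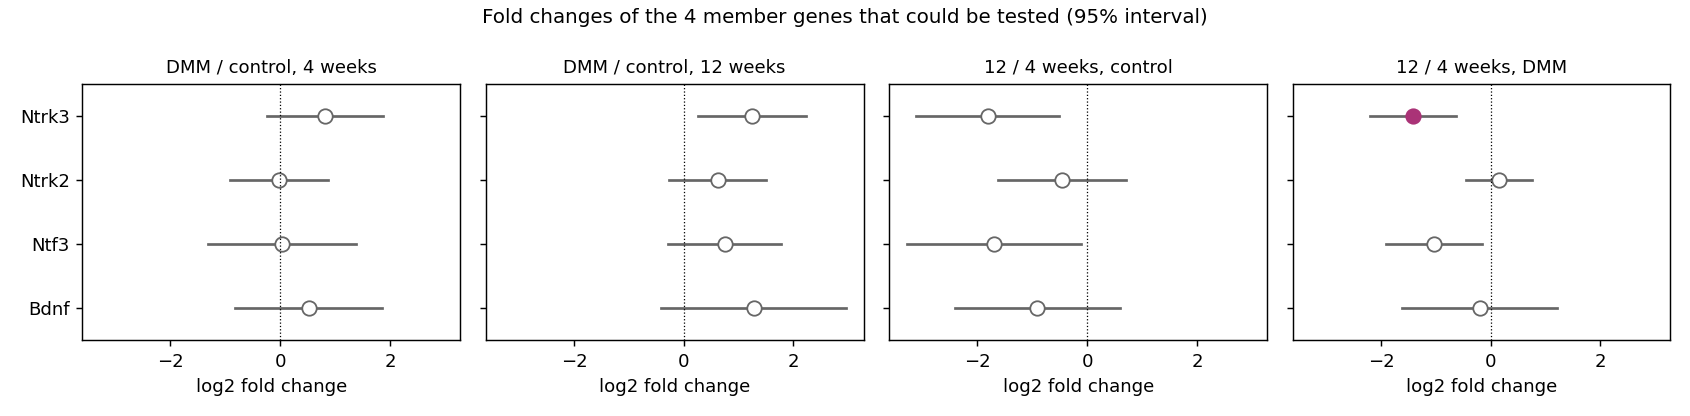
Log2 fold change (x axis) with its 95% interval for the 4 members that could be tested, in each limb comparison and each comparison of weeks; a filled point has an adjusted p under 0.05 in edgeR's test. The only filled point is Ntrk3 between weeks in DMM cartilage, at -1.42.

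Between the weeks, the clearest value belonged to Ntrk3. In DMM cartilage it went from 2.37 ± 0.441 CPM (SD, n = 3) at 4 weeks to 0.924 ± 0.332 CPM (SD, n = 3) at 12 weeks, and every 12-week library was below every 4-week library. The log2 fold change of 12 over 4 weeks was -1.42 (SE 0.36, 95% interval -2.21 to -0.63, adjusted p = 0.0204 in edgeR's test, 0.00381 in DESeq2). It was the only member called in this comparison, in which 23.8% of all 20951 transcripts tested were called, and 11.7% of all tested were called as lower, so a call was common here. The call was lost without DMM 4-week replicate 3 (adjusted p = 0.0532), without DMM 12-week replicate 1 (0.0563) and without DMM 12-week replicate 3 (0.0641), while the fold change stayed between -1.72 and -1.22. In control cartilage Ntrk3 went from 1.35 ± 0.774 CPM to 0.382 ± 0.119 CPM (SD, n = 3 each), or -1.81 on the log2 scale (SE 0.55, adjusted p = 0.143 in edgeR's test, 0.0233 in DESeq2). There, too, every 12-week library was below every 4-week library. This order was shown by 19.4% of all transcripts in DMM and 10.9% in control cartilage. Of 4 members tested in control cartilage, edgeR called 0 of them, as of all transcripts (0%), 2 had an unadjusted p under 0.05 and a lower value, as did 10.5% of all transcripts (10.8% had a higher one), and DESeq2, which called 11.7% of transcripts, called 1.

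The other members differed less between the weeks. For Ntf3 the log2 fold change was -1.03 (SE 0.40, adjusted p = 0.0798 in edgeR's test) in DMM and of -1.70 (SE 0.67, adjusted p = 0.209) in control cartilage, and its 12-week libraries were below all 4-week libraries in both limbs. Such an order, 12 weeks below 4 weeks, was shown by 19.4% of transcripts in DMM and 10.9% in control cartilage. Single libraries decided the Ntf3 value in control cartilage, which was -0.79 (adjusted p = 0.534 with edgeR) without control 4-week replicate 1 and -2.09 (adjusted p = 0.0495) without control 4-week replicate 3. For Ntrk2 the log2 fold changes were 0.15 in DMM and -0.45 in control cartilage, and for Bdnf -0.20 and -0.91, with adjusted p-values of at least 0.428 in edgeR's test. The Bdnf value in control cartilage was -0.21 without control 4-week replicate 1. The 14 fibroblast and synovium markers also had lower values at 12 weeks, with median log2 fold changes of -1.22 in DMM and -0.93 in control cartilage, and 12 and 13 of them were lower. In DMM cartilage the summed Schwann cell markers went from 616 to 765 CPM at 4 weeks to 401 to 565 CPM at 12 weeks, without overlap, although 8 of the 15 tested were higher (median 0.05). The summed neuron markers went from 11.1 to 14.8 CPM to 7.44 to 8.96 CPM, without overlap, with 5 of 7 tested lower, and 10 of 12 mural cell genes were lower. Muscle and chondrocyte genes ran opposite ways in the limbs. In control cartilage 30 of 30 (median -1.33) and 17 of 20 (median -0.76) were lower, and 16 of 18 haematopoietic genes were higher (median 0.47). In DMM cartilage 29 of 29 (median 1.09) and 16 of 20 (median 0.48) were higher, as were 8 of 18 haematopoietic genes (median -0.08). Of the 29 muscle genes there, 0 had an unadjusted p under 0.05 in edgeR's test. Their 12-week sums were 17060, 1016 and 1313 CPM against 904 to 5035 CPM at 4 weeks, so only 1 library lay above that range. The part of these lists in the Ntrk3 and Ntf3 values was not tested. The weeks compare different mice of different ages, so time after surgery and age cannot be told apart.

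Both receptors were counted on a truncated and on a kinase-bearing transcript. For Ntrk2 these transcripts share 1737 exonic bases, with 5293 bases of the truncated and 7007 of the kinase transcript their own, and for Ntrk3 they share 1640, with 2193 and 1338 their own. A read in a shared exon counts for both transcripts, so the counts are not independent and the ratio of their counts is not a ratio of molecules. The Ntrk2 kinase transcript NM_001025074 (821 residues) had 58.7% to 73.6% of the count of the truncated transcript over the 12 libraries, with group medians of 70.6%, 67.5%, 63.0% and 63.3% in control and DMM at 4 weeks and control and DMM at 12 weeks. Its log2 fold changes were -0.06 and 0.56 at 4 and 12 weeks, close to those of the truncated transcript.

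The Ntrk3 kinase transcript NM_008746 (825 residues) was scarcer at 12 weeks. It had 67, 65 and 55 counts in the DMM libraries at 4 weeks and 17, 17 and 6 at 12 weeks, and 48, 83 and 19 counts in the control libraries at 4 weeks and 11, 15 and 8 at 12 weeks. Its log2 fold change of 12 over 4 weeks was -2.25 (SE 0.50, adjusted p = 0.0133 with edgeR and 5.88e-04 with DESeq2) in DMM and -2.12 (SE 0.59, adjusted p = 0.127 with edgeR and 0.0150 with DESeq2) in control cartilage. Between limbs it was 0.70 (adjusted p = 0.504) at 4 weeks and 0.62 (adjusted p = 0.610) at 12 weeks. Between weeks in DMM cartilage edgeR called 23.8% and DESeq2 29% of all transcripts, so a call there was common. In control cartilage edgeR called 0% and DESeq2 11.7%. Relative to the truncated transcript, the kinase transcript held 68.4% to 74.3% in DMM cartilage at 4 weeks and 17.1% to 53.1% at 12 weeks, without overlap. In control cartilage it held 63.3% to 81.4% and 53.6% to 88.9%, with overlap. That overlap rests on 1 library, control 12-week replicate 3, with 8 of 9 counts at 88.9%. Control replicates 1 and 2 were at 57.9% and 53.6% at 12 weeks, below all 4-week controls. The 17.1% is 1 library, with 6 of 35 counts, and how often such ratios separate among other genes was not examined. The difference between both Ntrk3 transcripts was not tested.

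**Figure D3:**
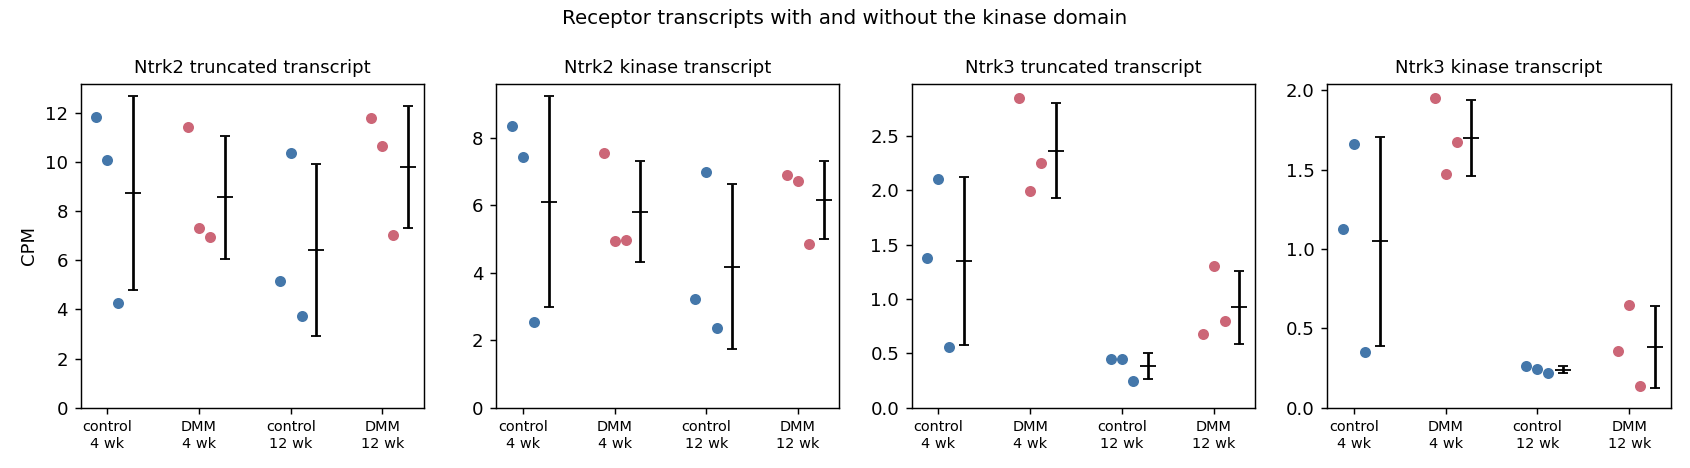
RNA level (CPM, linear axis from 0, with its own scale in each panel) of the truncated and kinase transcripts of Ntrk2 and Ntrk3 in control (blue) and DMM (red) libraries; bars show mean ± SD of 3 libraries. In each limb, every 12-week library of both Ntrk3 transcripts lies below every 4-week library, while the Ntrk2 groups overlap.

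Genes whose levels ran most like those of each member were sought among 15589 genes by Pearson's r of log2 CPM over the 12 libraries, as a description. For Ntrk3 these were Trnp1 (r = 0.976), Dpysl3 (r = 0.972) and Ccdc80 (r = 0.964), and for Ntrk2 they were Htra1 (r = 0.955), which encodes a secreted serine protease, Syt11 (r = 0.954) and Zdhhc1 (r = 0.950). For Bdnf they were Nf1 (r = 0.973), which encodes the Ras inhibitor neurofibromin, Zbtb10 (r = 0.922) and Map1b (r = 0.914), and for Ntf3 Cd99l2 (r = 0.956), Hcfc1r1 (r = 0.952) and Pigp (r = 0.949). Among the 4 members other than Ngfr, which was not included, r ranged from 0.538 for Bdnf and Ntrk2 to 0.789 for Ntf3 and Ntrk3. All these points share libraries, their depth and their tissue mix.

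The other pathway genes described here were 49 genes, comprising the ligand gene Ntf5, co-receptors and partners of p75, enzymes that cleave proneurotrophins or shed p75, and adaptors of Trk and of p75. Of 45 tested at 4 weeks, 12 were higher and 33 lower in DMM cartilage, with a median log2 fold change of -0.26, and edgeR called 0 of them. At an unadjusted p under 0.05, 0 were higher and 6 lower, beside 6.11% and 7.57% of all transcripts, and DESeq2, which called 3.44% of them, called 1. Of 43 tested at 12 weeks, 30 were higher and 13 lower, with a median of 0.09, and edgeR called 0 of them. At an unadjusted p under 0.05, 5 were higher and 3 lower, near the 8.94% and 7.39% of all transcripts, and DESeq2, which called 4.02% of them, called 2.

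Ntf5, which encodes neurotrophin-4, was at 0.201 to 1.08 CPM in control and 0.0914 to 0.437 CPM in DMM libraries at 4 weeks, with overlap. Its log2 fold change at 4 weeks was -1.15 (SE 0.84, adjusted p = 0.509 with edgeR). It did not pass edgeR's filter between limbs at 12 weeks, where it had no count in 2 DMM libraries and 29 counts in the other (adjusted p = 0.929 with DESeq2).

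Of the partners of p75 and the cleavage enzymes, a few had lower or higher values in DMM cartilage. Sorl1, which encodes a sorting receptor of the sortilin family, was at 40.1 ± 10.03 CPM in control and 19.0 ± 4.76 CPM in DMM cartilage at 4 weeks (SD, n = 3 each; log2 fold change -1.08, adjusted p = 0.252 in edgeR's test, 0.0202 in DESeq2), and its log2 fold change was -0.69 at 12 weeks. Furin, which encodes a convertase that cleaves proneurotrophins inside cells, was at 30.4 ± 9.52 CPM in control and 52.8 ± 4.90 CPM in DMM cartilage at 12 weeks (SD, n = 3 each; log2 fold change 0.80, adjusted p = 0.215 in edgeR's test, 0.0278 in DESeq2) but had a log2 fold change of -1.06 at 4 weeks. Pcsk6, another convertase, was at 23.7 ± 8.62 and 49.9 ± 8.63 CPM at 12 weeks (SD, n = 3 each; log2 fold change 1.08, adjusted p = 0.211 in edgeR's test, 0.00647 in DESeq2), and its log2 fold change was -0.30 at 4 weeks (adjusted p = 0.764 with edgeR). The most abundant p75 partner was Kidins220, at a mean of 34.0 CPM, with log2 fold changes of 0.12 at 4 weeks and 0.08 at 12 weeks. The most abundant cleavage enzyme was Plat, which encodes tissue plasminogen activator, at a mean of 145 CPM, with log2 fold changes of 0.03 and 0.49. Lingo1, a co-receptor of p75 in neurons, had log2 fold changes of -0.93 and 0.63, Pcsk2 of -0.20 and 0.89, and Adam17, a sheddase, of 0.53 and -0.21. The skeletal muscle list was lower in all 30 genes in DMM cartilage at 4 weeks (median log2 fold change -2.68), and its part in the lower values of that week was not tested.

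The adaptors ranged widely in level, from Bex1 at a mean of 0.420 CPM, and were led by Crk at a mean of 114 CPM among 18 Trk adaptors and Arhgdia at 373 CPM among 11 p75 adaptors. At 4 weeks 14 of the 18 Trk adaptors and 9 of the 11 p75 adaptors had lower values in DMM cartilage, and at 12 weeks 13 of 18 and 7 of 11 had higher values. The chondrocyte list ran the same way, with 16 of 20 genes lower at 4 weeks (median log2 fold change -0.80) and 20 of 20 higher at 12 weeks, when the haematopoietic genes were lower. The part of these lists in the values of adaptors and convertases was not tested. Shc3 had log2 fold changes of -1.41 and 0.74, Frs3 of -1.0 and 0.85, Bex1 of -1.66 and 0.98, Irak1 of -0.57 and -0.10 and Traf6 of -0.09 and -0.67, with adjusted p-values of at least 0.254 in edgeR's test.

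**Figure D4:**
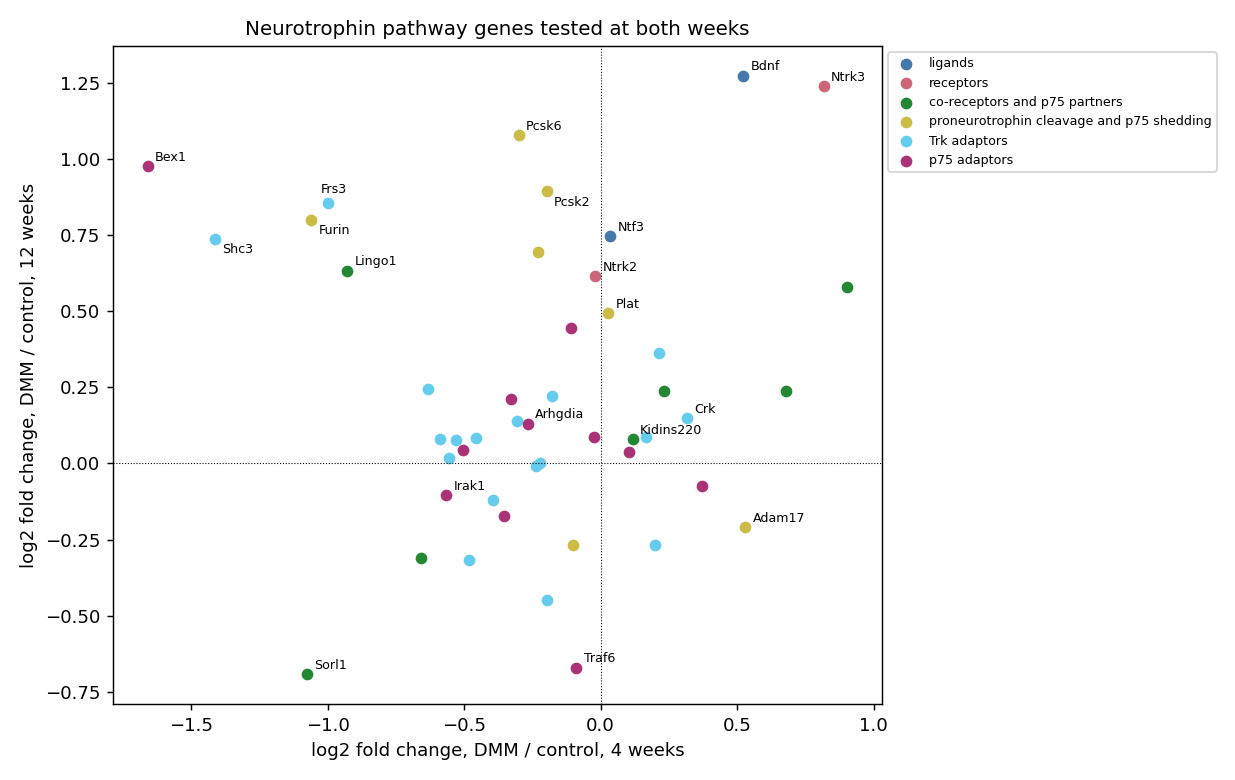
Log2 fold change of DMM over control at 4 weeks (x axis) against 12 weeks (y axis), 1 point per pathway gene tested at both weeks, coloured by list, members included. Bdnf (1.27) and Ntrk3 (1.24) have the highest values at 12 weeks.

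The cytosines measured near the transcript starts of the 5 members were nearly free of 5mC. Most of the listed Bdnf start stretches held no measured cytosine at either week. Over the cytosines within 1000 bp of a start that were read at least 10 times in each of the 6 oxBS libraries of that week, mean 5mC was between 0.832% and 4.93% in single libraries at 4 weeks and between 0.368% and 3.93% at 12 weeks. The share of cytosines left as C in mitochondrial DNA, taken here as unmethylated, was 0.530% to 0.742% in the oxBS libraries at 4 weeks. At 12 weeks it was 0.284% to 0.351%, so this background differed between the weeks. Such low 5mC near starts is common, since 85.2% of 14381 genes measured this way were under 10% at 4 weeks and 84.9% of 14265 at 12 weeks. In the stretches printed above, no measured cytosine was over 7.5% in either limb at either week.

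Bdnf, with 187 cytosines near its starts, was at 3.90 ± 0.950% in control and 3.09 ± 0.406% in DMM cartilage at 4 weeks (SD, n = 3 each; exact permutation test, two-sided, p = 0.2). When single libraries were left out, the 4-week Bdnf difference ran from -1.22 to -0.305 points. At 12 weeks it was at 3.29%, 2.71% and 3.93% in the control and 2.29%, 2.63% and 2.52% in the DMM libraries, without overlap (exact permutation test, two-sided, p = 0.1), a difference of -0.83 percentage points. Without control replicate 3 the difference was -0.525 points. The Bdnf libraries overlapped with a minimum of 20 reads (p = 0.2, exact permutation test), within 500 bp (p = 0.3) and from pooled reads (p = 0.3). Ntrk3 was the opposite case at 12 weeks, at 0.961%, 0.937% and 0.624% in the control and 1.04%, 1.29% and 1.28% in the DMM libraries, a difference of 0.36 points (exact permutation test, two-sided, p = 0.1). Lower values without overlap were found in 13.7% of 14265 promoters at 12 weeks and higher values in 4.72%. At 4 weeks no member's groups were without overlap, beside 6.4% lower and 3.1% higher among all promoters. At 12 weeks the DNA libraries of control replicate 2 and DMM replicate 1 stood apart, with 25.1% and 24.8% of C over all cytosines against 29.8% to 32.0% in the other 4. Without both, the differences were -0.99 points for Bdnf and 0.49 points for Ntrk3. The Bdnf value then rests on 177 cytosines instead of 154, so the cytosines changed as well as the libraries. Promoter 5hmC was between -0.932 and 1.77 percentage points in single libraries of the 5 members, near 0, and below 0 where the BS value is the smaller. Groups did not overlap for Ngfr at 4 weeks (higher in DMM, as in 5.46% of promoters, beside 4.27% lower), and at 12 weeks for Ntf3 (0.392 in control and 1.52 in DMM, higher as in 5.84%) and Ntrk3 (0.771 and -0.135, lower as in 3.81%). The BS library of 12-week DMM replicate 1 carries a different replicate name in its data than in its title, so its pairing with the oxBS library is uncertain. Without that replicate the differences were 1.25 and -0.86 points, and without control replicate 3 the Ntrk3 difference was -0.461 points. Without both control replicate 2 and DMM replicate 1 the differences were 1.88 points for Ntf3 and -1.18 points for Ntrk3. These rest on 29 and 44 cytosines instead of 25 and 42. From pooled reads both groups overlapped, as did Ntf3 with a minimum of 20 reads and Ntrk3 within 500 bp.

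**Figure D5:**
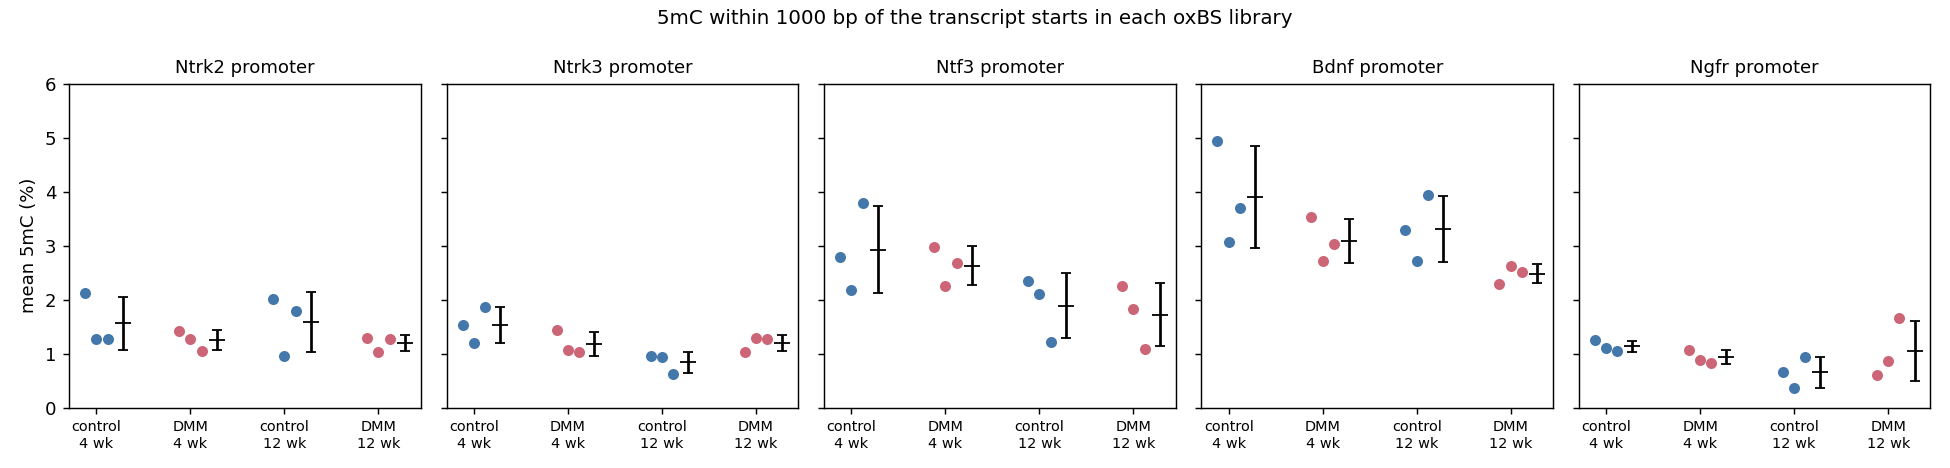
Mean 5mC (%, axis from 0 to 6) over the cytosines within 1000 bp of each member's transcript starts, in the 3 control (blue) and 3 DMM (red) oxBS libraries at 4 and 12 weeks; bars show mean ± SD. No library of any member exceeds 4.93%.

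Over the whole gene windows, starts included, the genes differed. From 5000 bp upstream to the end of the gene, 56 of 177 Ntrk2 cytosines measured at 4 weeks had less than 10% 5mC in pooled control reads and 82 had more than 70%, and for Ntf3 these numbers were 48 and 24 of 93. Bdnf (201 of 208 under 10%), Ntrk3 (70 of 87) and Ngfr (78 of 98) were measured mostly at unmethylated cytosines. Of all these cytosines, 187 of Bdnf, 50 of Ntrk3, 34 of Ngfr, 54 of Ntrk2 and 29 of Ntf3 lay within 1000 bp of a start. Over the cytosines elsewhere, the median of pooled control 5mC at 4 weeks was 76.9% for Ntrk2 and 49.3% for Ntf3. It was 1.82% for Bdnf (21 cytosines), 3.67% for Ntrk3 (37) and 2.39% for Ngfr (64). A cytosine was called when pooled 5mC differed by at least 25 points at a q-value under 0.05 in a likelihood ratio test, which treats reads as the units. At 4 weeks 0 of 663 cytosines in the 5 genes were called, beside 0.000554% of 1444973 cytosines genome-wide, and 64 had an unadjusted p under 0.05, beside 8.02% genome-wide. At 12 weeks 1 of 594 was called, beside 0.227% of 1273121, and 69 had an unadjusted p under 0.05, beside 9.43%. The smallest p-values at 4 weeks belonged to a cytosine in an untranslated Bdnf exon (chr2:109693817, 2.62% in control and 0% in DMM cartilage, q = 0.353) and to one in an Ntrk3 intron (chr7:78568946, 3.67% and 0.328%, q = 0.409).

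The called cytosine lies in an Ntrk2 intron at chr13:58947178 on the minus strand of GRCm38, 139481 bp after the nearest start and 10147 bp past the end of the truncated transcript, within the part of the gene that only the kinase transcript spans. It is shown because it was the single call, with its CG in capitals inside the MspI site CCGG.
Ntrk2 cytosine, chr13:58947138-58947218, minus strand: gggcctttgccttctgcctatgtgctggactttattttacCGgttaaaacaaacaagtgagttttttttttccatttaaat
Its 5mC was 58.5%, 53.8% and 56.7% in the control libraries (53, 13 and 30 reads) and 25.5%, 45.5% and 31.7% in the DMM libraries (51, 22 and 41 reads). The limbs did not overlap, but the cytosine was chosen by its difference, so this adds no support to the call. Pooled over reads it was 57.3% in control and 31.6% in DMM cartilage (difference -25.7 points, q = 0.0242). Without control replicate 2 and DMM replicate 1, whose libraries stood apart, the difference was -21.3 points with q = 0.435, so that neither threshold was met. With a correction for the spread between libraries no cytosine of the 5 genes was called. The call was also lost when control replicate 1, control replicate 3, DMM replicate 1 or DMM replicate 3 was left out singly. In those runs 0.129% to 0.322% of all cytosines were called.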

How the data were processed

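RNA-seq of 12 libraries (3 per limb and week) and RRoxBS were analysed. The labels describe poly(A) libraries and the study's methods a SMART-Seq preparation, so the RNA preparation is not settled here. The deposited RNA values are raw counts per RefSeq transcript, which the authors made with CASAVA 2.17, STAR and featureCounts on mm10; versions of the latter and the strand setting are not given in the sources used here. The deposited methylation values are the percent of C per cytosine with its coverage, which the authors derived with Bismark. A read shared by transcripts was counted for each.

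All transcripts were tested with edgeR 4.0.16 (R 4.3.3; TMM, filterByExpr, robust quasi-likelihood test, Benjamini-Hochberg adjustment, adjusted p under 0.05), with DESeq2 1.42.0 as an alternative. The edgeR test was also run on simulated data, and those results are not given here. Cytosines read at least 10 times in each of the 6 oxBS libraries of that week were tested on pooled reads, and the mitochondrial genome was left out. Promoters were compared by exact permutation tests over libraries in Python 3.11.15 (scipy 1.17.1). Each library pools 3 knees, so p-values of the RNA and promoter tests measure the spread between pools. Those of the cytosine test treat reads as the units and do not measure that spread. Median oxBS coverage was 22 to 102 reads. Intervals of counts cover counting error only.

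Members and lists were chosen with earlier results of these data known. The members were always named, and of the other pathway genes those called by either tool between limbs, and the largest changes and the most abundant gene of each list; some pathway genes are not reported here and were left out of the lists and counts. Alternatives were another normalization or filter, a replicate block, leaving out each library, other coverage and promoter limits, and, chosen after seeing the data, leaving out both 12-week DNA libraries that stood apart.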

Additional observations from a re-analysis of the deposited data

How the results depend on the processing

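Between limbs, edgeR called 0 members at each week under every alternative run. Of the pathway genes, DESeq2 called 1 at 4 weeks and 2 at 12 weeks, and leaving out single libraries gave 0 to 5 at 12 weeks (5 without control 12-week replicate 2). The share of all transcripts called in those leave-out runs, and in the replicate block below, is not given here, so these counts only describe the runs. Whether the replicate numbers pair the limbs is not settled here. Same-number correlations of deviations ran from -0.548 to 0.359, which with 3 libraries per group cannot decide it. With the replicate block 3 pathway genes were called at 12 weeks and the Ntrk2 log2 fold change at 4 weeks was 0.052.

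Between weeks in control cartilage, DESeq2 called 1 member and a fit of all 12 libraries 1 (Ntrk3 in both), and leaving out single libraries gave 0 to 2. In DMM cartilage a minimum of 10 counts in every library gave 2 (Ntf3 and Ntrk3), and leaving out single libraries 0 to 1. For these alternatives, too, the share of all transcripts called is not given here. Directions that turned when single libraries were left out belonged to values that did not pass the test: Ntf3 at 4 weeks (-0.38 to 0.99), Ntrk2 at 4 weeks (-0.36 to 0.25), Bdnf and Ntrk2 between weeks in DMM (-0.75 to 0.30 and -0.010 to 0.46), and the difference of effects for Ntf3 (-0.23 to 1.10) and Ntrk3 (-0.056 to 0.77).

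Cytosines called at 12 weeks numbered 3 at a difference of 20 points, beside 0.674% of all cytosines. They numbered 0 with an overdispersion correction (0.0864% of all), 0 at 20 reads (0.161%) and 0 without both libraries that stood apart (0.102%). Without single libraries they numbered 0 to 2, beside 0.129% to 0.409% of all. Without control 12-week replicate 1 the calls were in Ntf3 and Ngfr, not in Ntrk2. Promoters whose 5mC did not overlap numbered 2 at 4 weeks with 20 reads and 0 to 4 without single libraries. At 12 weeks they numbered 2 with 20 reads (Ntrk3 and Ngfr, not Bdnf), 1 within 500 bp, 1 from pooled reads, 4 without both libraries that stood apart and 2 to 3 without single libraries. For 5hmC the number was 1 to 2 at 4 weeks without single libraries. At 12 weeks it was 1 with 20 reads, 1 within 500 bp, 0 from pooled reads, 5 without both libraries and 2 to 4 without single libraries. With fewer libraries, groups overlap less often by construction, and for the other changes the cause was not tested. The shares of all promoters under these alternatives are not given here. Counts per library were lowest for Ngfr (1 to 11).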
